A study of Mus musculus with 48 samples.

Results

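Hypothalamic transcript levels of Per3 5/5 mice were compared with those of Per3 4/4 mice at the end of 12 h of sleep deprivation (SD). The samples were the hypothalamus arrays labelled Boxhill (Per3 5/5, n = 8 mice) and Coach (Per3 4/4, n = 8 mice), 16 of the 48 samples of the series. Both genotypes are knock-in (KI) lines on a C57BL/6 background, made in the C57BL/6-derived embryonic stem cell line Bruce4. Each KI mouse is homozygous for a Per3 allele in which a human PER3 exon stands in place of the mouse exon, and the lines differ in the tandem repeat of that exon, which has 5 copies in Per3 5/5 and 4 copies in Per3 4/4. A floxed cassette had been removed by a ubiquitous Cre that was then bred out. Each genotype was kept as a line of its own, so that the repeat number and any other difference between the lines cannot be told apart. All mice were adults that had been entrained to a 12-h light, 12-h dark cycle and kept awake through the light phase. No mouse without SD was measured, so every difference is one between genotypes after sleep loss. The 8 wild-type (WT) hypothalami of the series entered the fit to estimate the spread, and the frontal cortex of the same mice served for comparison.

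PER3 is 1 of 3 period proteins, which together with the cryptochromes repress the transcription factors CLOCK and BMAL1 in the circadian feedback loop. The repeat that distinguishes the lines occurs in primates and is known from human studies of sleep timing and of the response to sleep loss. The hypothalamus holds the suprachiasmatic clock and the nuclei that promote waking and sleep, among them orexin, histamine and galanin neurons. In rodent brain, waking is known to induce immediate early genes, the short form of the synaptic scaffold Homer1 and chaperones of the endoplasmic reticulum.

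Levels are given as the log2 signal of a probe relative to the 75th percentile of its array, and a difference of 1 is 2-fold. Positive differences mean a higher level in Per3 5/5 mice. The dissected tissue was read in bulk, so that fewer cells of a type and less RNA per cell cannot be told apart. The hypothalamic identity of the samples was checked with 12 markers: 11 were tested, and 10 of them, among them Hcrt, Oxt, Pmch and Avp, were higher than in the cortex of the same mouse in all 16 mice. The exceptions were Npy, which was lower than in cortex by 1.51 in the mean, and Otp, which was not above background. The 75th percentile of the signal was 917 to 1217 intensity units in Per3 5/5 and 307 to 1575 in Per3 4/4 mice. Per3 4/4 mice 6 and 7, at 307 and 502, shared a slide and were the dimmest. Scans fell on 3 days. Day 1 held mice 1 to 4 of both KI genotypes, with those of the same number on 1 slide. Day 2 held 3 Per3 4/4 and 5 WT mice. Day 3 held 4 Per3 5/5 mice, 1 Per3 4/4 mouse and 3 WT mice.

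The mice labelled number 2 of each genotype stood apart. Of 36 probes that separated the genotypes in the cortex of the other 14 mice, the hypothalamus of the mouse labelled Per3 5/5 number 2 lay nearer the Per3 4/4 mean at 31, and that of the mouse labelled Per3 4/4 number 2 lay nearer the Per3 5/5 mean at 29. The other 14 mice lay nearer the other genotype at 0 to 10 of these probes. Their own cortex had chosen the probes, so these lower counts are in part a result of the choice. The mice labelled number 2 had no part in it. These 2 mice shared a slide of scan day 1, so values of scan day 1 alone include them. They were kept under their labels, values without them are given beside the results, and the cause was not tested.

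Across 30735 probes, 0 differed between the genotypes at an adjusted p under 0.05 (limma, a background of 0%), and the smallest adjusted p was 0.172. At an unadjusted p under 0.05 there were 4983 probes, and 57.5% of them were higher in Per3 5/5 mice. With the normexp background correction, which starts from the median spot signal in place of the processed signal, 2767 passed and the share that was higher was 38.9%. Without the filter on dim probes it was 52.4%. Among the 15924 genes, read by 1 probe each, 755 (4.74%) were higher and 1213 (7.62%) were lower at this unadjusted level. The median difference of all genes was -0.02. The shares of 4.74% and 7.62% are the background of list counts over all mice. On scan day 1 alone, with 4 mice against 4, 62 genes (0.389%) were higher and 293 (1.84%) lower. Without the mice labelled number 2, 15 probes (0.0488%) were called higher and 28 (0.0911%) lower at an adjusted p under 0.05. This pair was left out after its values had been seen, so these 43 calls are a description. Leaving out any other same-numbered pair gave 0 calls, or 1 call for number 5.

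Per3 itself was read by 1 probe. In Per3 5/5 mice its level was -3.40 at the lowest, -3.18 at the median and -2.50 at the highest, and in Per3 4/4 mice -3.92, -3.34 and -3.01. The groups overlapped, and 2 of 8 Per3 5/5 mice lay above every Per3 4/4 mouse. The mean difference was 0.30 ± 0.13 (SE), with an exact two-sided permutation p of 0.0612 and a limma adjusted p of 0.27. On scan day 1 alone it was -0.09 (exact permutation p = 0.457), and after the normexp correction it was 0.02 (exact permutation p = 0.885). The position of this probe relative to the humanized exon was not analysed here. The upstream promoter of Per3 is shown because the gene carries the allele, as the 250 bases before its start in RefSeq (GRCm38.p6, chr4:151044666-151044915, minus strand). Capitals mark the letters TTATGTAA, the D-box form bound by PAR bZIP factors such as DBP. They occurred on either strand in 0.819% of 32851 promoters of this length. In the core clock genes 2 of 29 promoter windows held them (6.9%), with Per3 itself counted there. The match is a description of the sequence.
Per3: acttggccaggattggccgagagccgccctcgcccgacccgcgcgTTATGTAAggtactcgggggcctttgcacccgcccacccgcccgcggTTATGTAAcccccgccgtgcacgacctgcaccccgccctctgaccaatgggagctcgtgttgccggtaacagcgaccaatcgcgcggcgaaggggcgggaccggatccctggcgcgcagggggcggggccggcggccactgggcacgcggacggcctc

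The rest of the core clock showed small differences. Of 25 clock genes tested, 3 were higher (background 4.74%) and 1 was lower (7.62%) at an unadjusted p under 0.05. The median of the list was 0.01. Besides Per3, the higher genes were Csnk1e, a kinase that phosphorylates period proteins (difference 0.20 ± 0.09), and Rorb, a nuclear receptor of the ROR family (0.28 ± 0.13). Fbxl21, an F-box protein that acts on cryptochrome stability, was lower (-0.22 ± 0.09). On day 1 none of the 25 passed in either direction. Per1, Per2, Cry2, Nr1d1 and Dbp, added here as genes of the main loop, overlapped between the genotypes and differed by 0.08, -0.06, 0.01, -0.04 and -0.06.

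Homer1 codes a scaffold that links metabotropic glutamate receptors to calcium stores. It was read by 3 tested probes, whose differences were unlike. The study describes Homer1 probes at either end of the transcripts, with opposite changes in KI against WT mice. Which end each probe reads was not analysed here. At the first probe (A_51_P387159) the level was -3.89 to -2.90 in Per3 5/5 mice with a median of -3.68, and -4.29 to -3.63 in Per3 4/4 mice with a median of -3.99. Per3 5/5 mice 6, 7 and 8, all of scan day 3, lay above every Per3 4/4 mouse and the other 5 lay between the Per3 4/4 median and highest value. The difference was 0.49 ± 0.17 (exact permutation p = 0.00373, limma adjusted p = 0.235). The second probe (A_51_P387160) differed by 0.36 ± 0.13 (exact permutation p = 0.0193, limma adjusted p = 0.252). At the third (A_52_P151211) the difference was 0.03 ± 0.09 (exact permutation p = 0.73). Within scan day 1 the first 2 probes differed by 0.11 and 0.09 (exact permutation p = 0.2 and 0.543, where 4 mice against 4 cannot go below 0.0286), and after the normexp correction by 0.05 and 0.10.

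The most compact group of differences lay on chromosome 4, 30 to 41 tested genes before Per3 in gene order. There, Fbxo6, Fbxo44 and Fbxo2, related F-box proteins, Mad2l2, a subunit of a translesion DNA polymerase, Agtrap, a protein bound to the angiotensin receptor, Clcn6, an endosomal chloride transporter, Plod1, a collagen lysyl hydroxylase, and 2510039O18Rik had probes with lower levels in Per3 5/5 mice. Fbxo6 (A_51_P228846) was 2.56 at the lowest, 3.08 at the median and 3.49 at the highest in Per3 5/5 mice and 3.38, 3.87 and 4.18 in Per3 4/4 mice. All but 1 of the Per3 5/5 mice lay below every Per3 4/4 mouse, and the exception was the mouse labelled number 2. The difference was -0.74 ± 0.15 (limma adjusted p = 0.208). The second Fbxo6 probe (A_52_P557923) differed by -1.01 ± 0.18 (limma adjusted p = 0.172), with the spot of the mouse labelled Per3 5/5 number 2 missing as an outlier.

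Along this stretch Fbxo44 differed by -0.80 and -0.83 at its 2 probes, Plod1 by -0.75, Clcn6 by -0.70, Mad2l2 by -0.56 and 2510039O18Rik by -0.49. On scan day 1 alone the differences were smaller, at -0.47 and -0.52 for Fbxo6, -0.44 and -0.37 for Fbxo44, -0.37 for Plod1, -0.35 for Clcn6, -0.33 for Mad2l2 and -0.38 for 2510039O18Rik, and 0 of these probes passed at an unadjusted p under 0.05 there. Both mice labelled number 2 are among those of scan day 1. On that day without them, the differences were -0.67 and -0.74 for Fbxo6 and -0.78 and -0.73 for Fbxo44. For Plod1 the value was -0.68, for Clcn6 -0.70, for Mad2l2 -0.59 and for 2510039O18Rik -0.71. Over all scan days without the mice labelled number 2, the called probes of the stretch differed by -0.63 to -1.10. Their limma adjusted p was 0.00366 to 0.0456. These called probes were 14 of the 28 called with a gene symbol, and 9 of 23 genes. Chromosome 4 holds 974 of the 15924 genes tested. Probes of 1 gene did not always go together. Agtrap was lower at 3 probes (-0.76, -0.61 and -0.60) and was 0.09 at its brightest, and Fbxo2 was lower at 2 probes (-0.50 and -0.61) and was -0.08 at its brightest. The neighbours Nppa and Nppb, which code natriuretic peptides, differed by -0.42 and -0.48. Mfn2, Draxin and Disp3 in and beside the stretch differed by -0.02, -0.01 and -0.23.

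**Figure D1:**
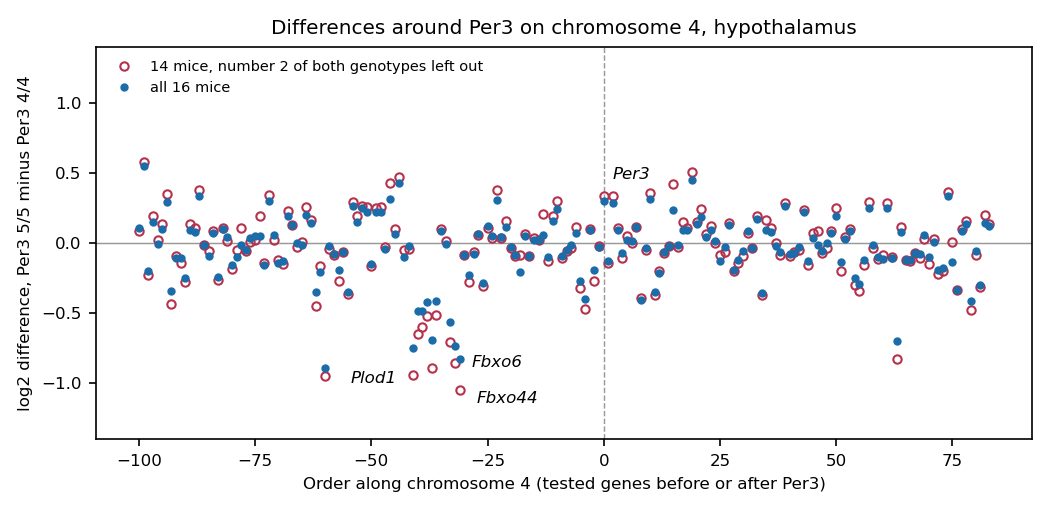
Log2 difference in hypothalamus, Per3 5/5 minus Per3 4/4 (vertical axis), for the brightest tested probe of each gene, in gene order along chromosome 4 with Per3 at 0 (horizontal axis, number of tested genes). Filled points are all 16 mice and open points the 14 mice without those labelled number 2. In the run before Per3, Plod1 is at -0.75 with all mice and -0.94 without those labelled number 2, and Fbxo44 at -0.83 and -1.05.

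The levels of the stretch in WT mice were nearer those of the Per3 5/5 line. WT arrays were scanned on days 2 and 3 only, so these means are compared across unlike scan days. For 2510039O18Rik the WT mean of 2.71 lay between the 2.49 of the Per3 5/5 and the 2.98 of the Per3 4/4 line. The mean of Fbxo6 was 3.21 in WT mice against 3.07 in the Per3 5/5 and 3.81 in the Per3 4/4 line, Fbxo44 had means of 0.32, 0.61 and 1.42, and Clcn6 had means of -1.97, -1.74 and -1.04. In the frontal cortex of the same mice the genotypes differed the same way, by -0.58 for Fbxo6 (A_51_P228846), -0.85 for Fbxo44 (A_51_P505943) and -0.75 for Clcn6. When all chromosomes were read in overlapping stretches of 50 tested genes that began 10 genes apart, the 5 stretches with more than 2 genes at an unadjusted p under 0.001 all lay on chromosome 4. They overlapped one another and so share genes, and the most that 1 stretch held was 5. Chromosome 4 had 7 such genes of 974 in all. The plot of differences in gene order shows the run as a dip before Per3, which itself is at 0.30.

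Outside chromosome 4, the calls made without the mice labelled number 2 were fewer per chromosome. Chromosomes 2 and 11 had 4 and 3 of the 23 called genes, and hold 1278 and 1305 of the 15924 genes tested. Chromosome 2 held Kif3b, a subunit of the kinesin-2 motor (-0.94 with all mice), Zbtb46, a zinc finger factor of dendritic cells (-0.69), Rtel1, a helicase of telomere maintenance (0.43), and Ppp1r16b, a regulatory subunit of protein phosphatase 1 (0.999). Among those of chromosome 11 were Ifi47 (-1.30) and Tgtp1 (-1.25), interferon-induced GTPases. Ppp1r16b shows the arrangement by mouse. Its level was -1.91, -0.39 and 0.15 in Per3 5/5 mice (lowest, median, highest) and -1.89, -1.73 and 0.10 in Per3 4/4 mice. The lowest Per3 5/5 and the highest Per3 4/4 value were those of the mice labelled number 2, and the other mice did not overlap. Without them the difference was 1.43 (limma adjusted p = 0.00432), and with them 0.999 (0.227).

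**Figure D2:**
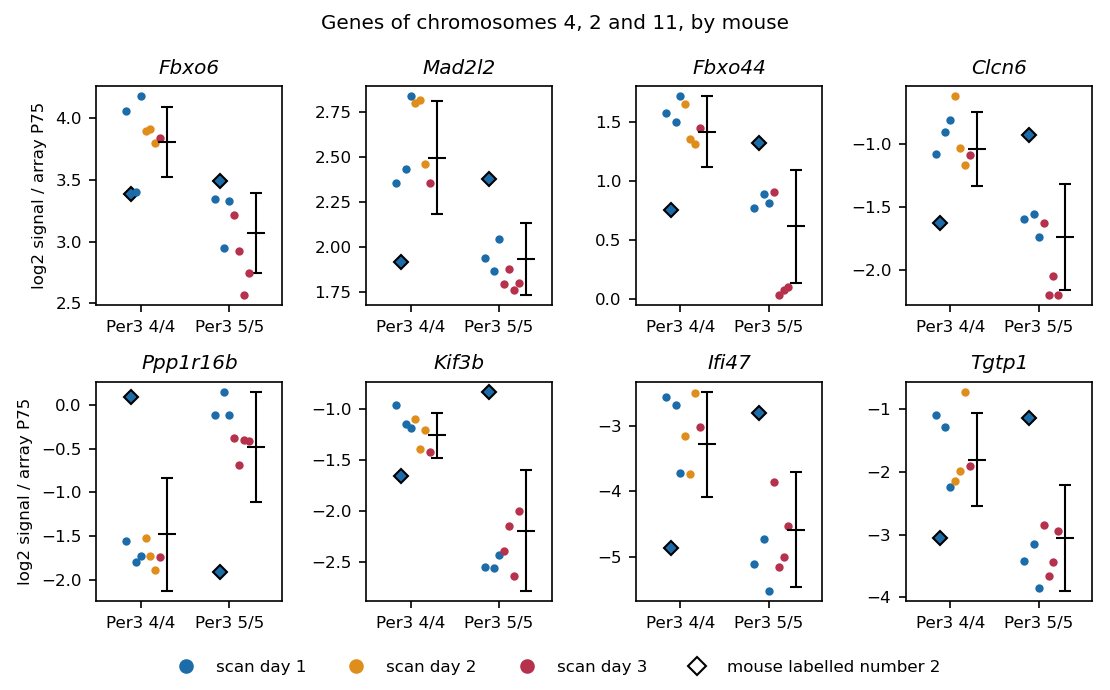
Log2 level relative to the array 75th percentile (vertical axes) of 8 genes of chromosomes 4, 2 and 11 in each of the 16 hypothalami, coloured by scan day, with the mean and SD of each genotype beside the points. The mice labelled number 2 (diamonds) lie toward the other genotype, as at Ppp1r16b, where they are at -1.91 in Per3 5/5 and 0.10 in Per3 4/4.

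The plot by mouse shows the same arrangement at Mad2l2, Ifi47 and Clcn6. Like Ppp1r16b, these genes were called only without the mice labelled number 2. The choice itself therefore favours probes where those mice stand apart. For Kif3b the mouse labelled Per3 5/5 number 2 was at -0.83, above all Per3 4/4 mice, and the other 7 lay below all of them, while the mouse labelled Per3 4/4 number 2, at -1.65, was the lowest of its genotype but nearer the other Per3 4/4 mice. At Fbxo6 both mice lay near the border of the groups. Pttg1, which codes securin, had separate high and low levels among the mice: 4 Per3 4/4 mice were at 2.95 to 4.36 and the other 4 at -0.50 to 0.31, while 7 Per3 5/5 mice were at -0.39 to 0.02 and the mouse labelled number 2 was at 2.72. Slx1b, a subunit of a structure-specific nuclease, and Ccl21a, a chemokine of lymphoid tissue, likewise had separate high and low levels within both genotypes, and their mean differences of 1.81 ± 0.76 and -1.75 ± 0.79 rest on how many mice were at the high level.

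Among immediate early genes, Npas4 had the smallest unadjusted p of all probes with a symbol that were higher in Per3 5/5 mice. Npas4 is a transcription factor that neuronal calcium signals induce and that organises inhibitory synapses. Its level was -5.37, -4.80 and -4.45 in Per3 5/5 mice (lowest, median, highest) and -5.66, -5.55 and -5.25 in Per3 4/4 mice. The lowest Per3 5/5 value was that of the mouse labelled number 2, and the other 7 lay above every Per3 4/4 mouse. The difference was 0.70 ± 0.13, or 1.63-fold (limma adjusted p = 0.172), and 0.53 on scan day 1. Without the mice labelled number 2 it was 0.81 (limma adjusted p = 0.00481). In cortex the difference was -0.23, and the difference within each mouse between the tissues was 0.94 ± 0.23 (limma adjusted p = 1).

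The upstream promoter of Npas4 is shown because this gene led the activity-induced list. It covers the 250 bases before the start in RefSeq (GRCm38.p6, chr19:4989972-4990221, minus strand), and capitals mark the letters TGACGT on either strand, the start of the cAMP response element bound by CREB. These letters were found in 14 of 47 promoter windows of the immediate early genes (29.8%), with Npas4 itself counted there. The share was 6.47% in 32851 promoters of this length. A match does not show binding.
Npas4: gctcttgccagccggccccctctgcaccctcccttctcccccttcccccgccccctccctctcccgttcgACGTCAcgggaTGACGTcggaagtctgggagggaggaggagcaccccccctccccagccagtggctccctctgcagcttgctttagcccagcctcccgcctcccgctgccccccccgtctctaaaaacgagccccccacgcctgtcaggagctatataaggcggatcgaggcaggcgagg

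Of 36 immediate early genes tested, 5 were higher (background 4.74%) and 0 lower (7.62%), and the list had a median of 0.09. Besides Npas4 these were Jun, a subunit of AP-1 (0.28 ± 0.09), Dusp4 and Dusp1, phosphatases that switch off MAP kinases (0.33 ± 0.12 and 0.23 ± 0.11), and Fosb, another AP-1 subunit (0.29 ± 0.14). Fosb is outside the 4 genes a list may name by the rule and was added after its value was seen. Jun was 0.22 to 0.81 in Per3 5/5 mice (median 0.53) and -0.04 to 0.55 in Per3 4/4 mice (median 0.23), and 3 Per3 5/5 mice lay above every Per3 4/4 mouse. On day 1 only 1 of the 36 passed, and Dusp4 was at -0.01 there. The widely used activity genes Fos, Arc and Egr1 differed by 0.19, 0.03 and 0.19, with overlapping levels. The summed linear level of the list was 104 to 129 in both genotypes.

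Among the largest differences in the higher direction were those of 2 abundant noncoding RNAs. Malat1, a nuclear-retained noncoding RNA of speckles, was 1.35, 2.199 and 3.95 in Per3 5/5 mice (lowest, median, highest) and 0.82, 1.33 and 1.86 in Per3 4/4 mice. Meg3, an imprinted noncoding RNA, was 1.38, 2.17 and 3.70 against -0.14, 1.27 and 1.90. For both transcripts the 3 highest mice were Per3 5/5 mice 6, 7 and 8, and 5 of 8 Per3 5/5 mice lay above every Per3 4/4 mouse. The differences were 1.1 ± 0.31 (limma adjusted p = 0.227) and 1.13 ± 0.305 (0.227). A second probe of each gave 0.76 and 0.87, and on scan day 1 the values at the first probes were 0.44 and 0.59.

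Other genes with large higher values were Negr1, an adhesion molecule of the neuronal surface (1.23), the noncoding RNA 9530091C08Rik (1.17), the pseudogene Pisd-ps3 (1.07), Myl7, an atrial myosin light chain (1.07), Thpo, the platelet growth factor thrombopoietin (1.003), 6330415B21Rik (0.99) and Vps13c, a lipid transfer protein (0.98). Vps13c was -0.84 to 0.04 in Per3 5/5 mice 6, 7 and 8, -2.70 to -2.32 in the other Per3 5/5 mice and -3.17 to -2.32 in Per3 4/4 mice. The difference of Vps13c on day 1 was 0.08. The chromatin and RNA processing list, which holds Malat1 and Meg3, had 9 of 61 genes higher (background 4.74%) and 2 lower (7.62%). Its median was 0.125. Hdac10, a deacetylase (0.23), and Smarca4, the ATPase of a chromatin remodelling complex (0.37), were among the 9. On day 1 none of the 61 passed in either direction and the median was 0.03.

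Among the largest differences in the lower direction were those of plasma proteins that the liver makes. Of 28 liver-type transcripts tested, 19 were lower (background 7.62%) and 0 higher, and the median was -0.89. On scan day 1 alone 2 of the 28 were lower and the median was -0.49, and with scan day as a block 9 were lower and the median was -0.73. Mup1, a major urinary protein, was -6.77, -4.94 and -2.09 in Per3 5/5 mice (lowest, median, highest) and -5.10, -2.21 and 1.28 in Per3 4/4 mice. Ahsg, the carrier protein fetuin, was -6.19, -4.36 and -3.06 against -5.45, -3.17 and 0.16. The highest values of both were those of Per3 4/4 mice 6 and 7, the dim arrays, at 0.73 and 1.28 for Mup1 and 0.12 and 0.16 for Ahsg. The differences were -2.68 ± 0.84 for Mup1 and -1.84 ± 0.75 for Ahsg (limma adjusted p = 0.227 and 0.26), and -2.05 for Mup4 and -1.50 for the protease inhibitor Mug1. Probes for major urinary proteins may share signal, since the genes are near-identical copies. Without Per3 4/4 mice 6 and 7, 6 of the 28 transcripts were lower and the median was -0.41. The summed level of the list was 53.2 to 68.9 in Per3 5/5 and 58.5 to 82 in Per3 4/4 mice. Ttr, Apoc4 and Cyp2e1 were well above background on at most 2 Per3 5/5 and 4 Per3 4/4 arrays, and their part in the list is uncertain.

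**Figure D3:**
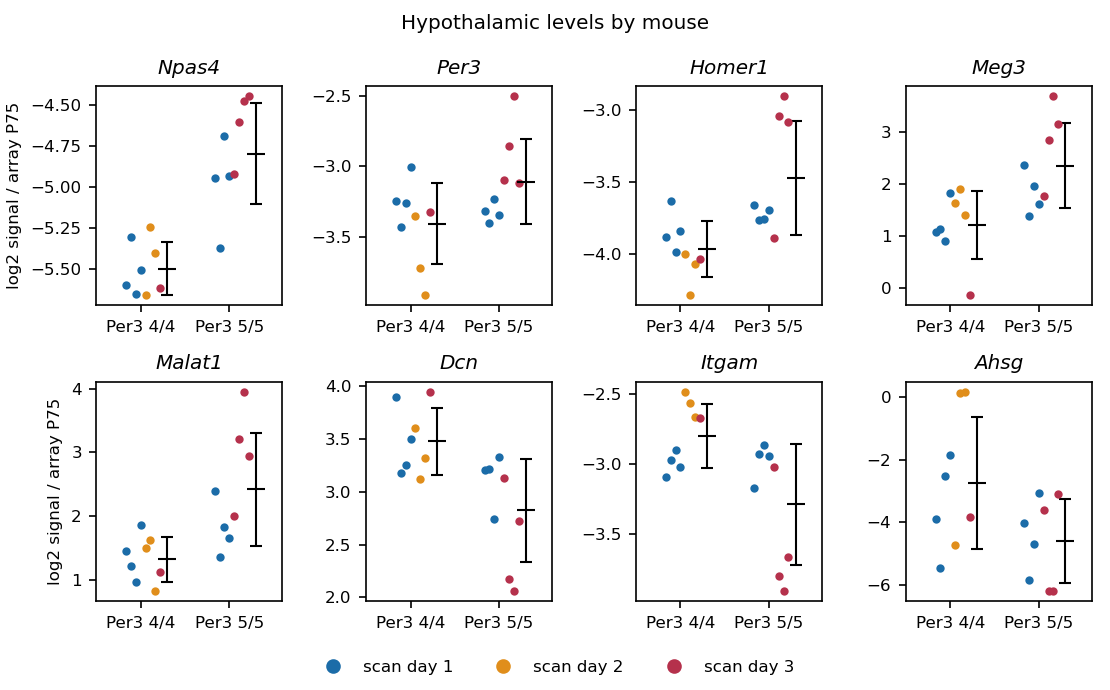
Log2 level relative to the array 75th percentile (vertical axes) of 8 genes in each of the 16 hypothalami, coloured by scan day, with the mean and SD of each genotype beside the points. Per3 5/5 mice 6, 7 and 8 of scan day 3 are the highest for Malat1 (2.95 to 3.95) and the lowest for Itgam (-3.91 to -3.67).

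Markers of microglia had lower levels over all mice and not on scan day 1. Of 24 microglial genes tested, 15 were lower (background 7.62%) and 0 higher, all 24 differences were negative, and the median was -0.52. Itgam, an integrin subunit of complement receptor 3, was -3.91, -3.10 and -2.86 in Per3 5/5 mice and -3.10, -2.79 and -2.49 in Per3 4/4 mice. Per3 5/5 mice 6, 7 and 8 were at -3.80, -3.91 and -3.67, below every other mouse, and of the remaining 5, at -3.17 to -2.86, 1 lay below every Per3 4/4 mouse. The difference was -0.49 ± 0.165 (limma adjusted p = 0.233). On scan day 1 it was 0.02, and there 0 of 24 microglial genes passed in either direction and the list median was 0.02. C1qc, a subunit of complement C1q, differed by -0.48, Ptprc, the leukocyte phosphatase CD45, by -0.68, and Fcrls, a receptor of microglia, by -0.66. The summed level of the list was 23.7 to 66.4 in Per3 5/5 and 38.3 to 66.8 in Per3 4/4 mice, and on day 1 it was 47.2 to 66.4 and 51.4 to 64.4.

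Genes of the meninges and fibroblasts had lower levels on scan day 1 as well. Of 21 tested, 15 were lower (background 7.62%) and 0 higher, and the median was -0.655. Ogn, a small proteoglycan of connective tissue, was -1.64, 0.00 and 1.78 in Per3 5/5 mice and 0.47, 1.55 and 1.92 in Per3 4/4 mice. In 5 of 8 Per3 5/5 mice it was below every Per3 4/4 mouse, with the lowest values in mice 6, 7 and 8, and mouse 5 was among the highest of all. The difference was -1.25 ± 0.37 (limma adjusted p = 0.227). Dcn and Lum, proteoglycans that bind collagen fibrils, differed by -0.65 and -0.98, and Pcolce, which aids procollagen cleavage, by -0.91. On day 1 the count was 8 lower and 0 higher with a median of -0.41, against 1.84% of all genes lower. The summed level of the list was 20.3 to 71.4 in Per3 5/5 and 40.2 to 90.5 in Per3 4/4 mice. Prg4, the joint lubricant lubricin, was -1.52 ± 0.46.

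Retinoids are signals made in part by meningeal cells. Of 29 genes of retinoic acid and thyroid hormone signalling, 6 were lower (background 7.62%) and 2 higher (4.74%), with a median of -0.06. Aldh1a2, which makes retinoic acid and also marks meningeal fibroblasts, differed by -1.09 ± 0.34, Crabp2, which carries it to the nucleus, by -1.25 ± 0.36, and Adh1, an alcohol dehydrogenase that acts on retinol, by -0.83 ± 0.27. Choroid plexus markers had 6 of 25 lower (background 7.62%) and 0 higher with a median of -0.36 (-0.15 and 0 of 25 on day 1). Col8a1, a short-chain collagen, and Slc22a8, an organic anion transporter, differed by -0.36 and -0.55. The defining choroid marker Ttr was above background on 2 Per3 5/5 and 4 Per3 4/4 arrays. The summed level of that list was 23.3 to 35.4 in Per3 5/5 and 28.5 to 43.4 in Per3 4/4 mice. The part of meningeal and choroid tissue in other differences was not tested.

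Immune genes leaned the same way. Of 44 interferon-induced genes, 14 were lower (background 7.62%) and 0 higher, with a median of -0.23 and 2 lower on day 1 (background 1.84%). Ifi47 and Tgtp1, named above for chromosome 11, led the list, followed by Oas1a, a sensor of double-stranded RNA (-0.52 ± 0.14), and Usp18, a protease that damps interferon signalling (-0.59 ± 0.17). Of 21 genes of the major histocompatibility complex (MHC) and antigen presentation, 5 were lower (background 7.62%) and 0 higher. H2-Aa, the alpha chain of an MHC class II molecule, was -7.72, -4.09 and -3.19 in Per3 5/5 mice and -4.06, -3.14 and -2.13 in Per3 4/4 mice at A_51_P119760. Per3 5/5 mice 6, 7 and 8 were at -6.64, -7.72 and -5.47, below all other mice. The difference was -1.67 ± 0.54 (limma adjusted p = 0.23), and that of H2-Ab1, the beta chain, was -1.64 ± 0.53 at A_51_P215242.

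Inflammatory and lymphocyte lists are read against 4.74% of all genes higher and 7.62% lower. Chemokines had 7 of 22 lower and 1 higher, with a median of -0.48. Chemokine receptors had 6 of 10 lower and 0 higher, with a median of -0.595. On scan day 1 alone, where 1.84% of all genes were lower, 3 of 22 chemokines and 3 of 10 receptors were lower. Their medians there were -0.34 and -0.588. Of 26 transcripts of neutrophils and acute inflammation, 7 were lower and 0 higher, and on day 1 the counts were 5 lower and 0 higher. Hp, the haemoglobin-binding haptoglobin, differed by -0.92, Lrg1, an acute-phase glycoprotein, by -0.59, and S100a8, a calcium-binding protein of neutrophils, by -1.47. T and B lymphocyte genes had 4 of 17 lower, and 0 of 17 on day 1. Blood transcripts were 0 of 9 in either direction, with a summed level of 124 to 417 in Per3 5/5 and 113 to 228 in Per3 4/4 mice.

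Prostaglandin genes were a group of interest because prostaglandin D2 is a sleep-promoting lipid of the brain. Of 19 tested, 8 were lower (background 7.62%) and 0 higher, with a median of -0.30. On day 1 the counts were 1 lower and 1 higher. Ptgis, prostacyclin synthase, was -4.52, -3.95 and -3.16 in Per3 5/5 mice and -3.92, -3.29 and -2.82 in Per3 4/4 mice. In 5 of 8 Per3 5/5 mice it was below every Per3 4/4 mouse. The difference was -0.63 ± 0.17 (limma adjusted p = 0.227). Ptgfr, the receptor for prostaglandin F2 alpha, differed by -0.73 ± 0.21, Pla2g4a, the phospholipase that frees arachidonic acid, by -0.47 ± 0.15, and Ptgs2, the inducible cyclooxygenase, by -0.59 ± 0.21. Ptgds, which makes prostaglandin D2 and is also a leptomeningeal transcript, was -0.56 ± 0.20, and was added after its value was seen. Its level was 6.60 to 8.24 in Per3 5/5 and 7.57 to 8.44 in Per3 4/4 mice. The meningeal list moved with these genes, and its part in them was not tested.

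Adenosine, which accumulates in waking brain, is made outside cells by Nt5e. Of 19 adenosine genes, 0 were higher (background 4.74%) and 3 lower (7.62%). Nt5e differed by -0.33 ± 0.12, the receptor Adora2b by -0.41 ± 0.16 and the deaminase Ampd3 by -0.28 ± 0.13. The inhibitory receptor Adora1 differed by 0.11 ± 0.11 and the excitatory Adora2a by -0.17 ± 0.27. On day 1 none of the 19 passed.

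Among genes the study had discussed for sleep, 2 of 18 tested were higher (background 4.74%) and 5 lower (7.62%). Kcna2, a delayed rectifier potassium channel subunit, was -1.08, -0.49 and 0.73 in Per3 5/5 mice and -1.29, -0.85 and -0.80 in Per3 4/4 mice. Per3 5/5 mice 6, 7 and 8 were at 0.36, 0.73 and 0.40, above all others. The difference was 0.65 ± 0.23, and 0.12 on day 1. Cacna2d2, an auxiliary calcium channel subunit, differed by 0.32 ± 0.15, and Tgfbi, a matrix protein induced by TGF-beta, by -0.62 ± 0.16. Prl, the pituitary hormone prolactin, ranged from -8.82 to 4.70 in Per3 5/5 mice and was -6.48 to -3.09 in Per3 4/4 mice, so that its difference of 0.99 ± 1.71 was within its spread. This list was chosen by the study on these samples, and its counts are no independent evidence. The pituitary list, with Tshb at -1.54 ± 0.75, had a summed level of 7.47 to 75.9 in Per3 5/5 and 20.7 to 34.2 in Per3 4/4 mice.

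Neuropeptides of the hypothalamus had small differences. Of 29 wake and sleep peptides and receptors, 0 were higher (background 4.74%) and 1 lower (7.62%), the VIP receptor Vipr1 (-0.53 ± 0.24). Orexin (Hcrt), the peptide of the arousal neurons of the lateral hypothalamus, was 6.21 to 7.36 in Per3 5/5 and 6.66 to 7.33 in Per3 4/4 mice, with a difference of -0.28 ± 0.17. For melanin-concentrating hormone (Pmch) the difference was -0.27 ± 0.18. Of 17 neurosecretory genes 0 passed in either direction. Oxytocin (Oxt) differed by 0.04 ± 0.19, vasopressin (Avp) by -0.04 ± 0.14, Pcsk1n, an inhibitor of prohormone convertase, by -0.08 ± 0.15 and Chgb, a granin of secretory vesicles, by -0.23 ± 0.18. Of 21 arcuate feeding genes 1 was lower, the acute-phase serpin Serpina3n (-0.49), added here since it was the only one to pass.

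Hypothalamic transcription factors had 4 of 33 higher (background 4.74%) and 0 lower (7.62%), with a median of 0.11. These were Dlx5, a homeobox factor of GABA neurons (0.44 ± 0.17), Hdac4, a deacetylase (0.40 ± 0.16), Sim2, a bHLH-PAS factor (0.23 ± 0.10), and Pou3f2, needed for oxytocin and vasopressin neurons (0.39 ± 0.18). Dlx5 was -2.73 to -1.53 in Per3 5/5 mice and -3.08 to -2.26 in Per3 4/4 mice, and 4 of 8 lay above every Per3 4/4 mouse. On day 1 the count for the list was again 4 higher (background 0.389%) and 0 lower (1.84%), but its median was -0.04. Sim2 was -0.05 after the normexp correction.

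Receptor and channel genes of neurons are read against 4.74% of all genes higher and 7.62% lower. Glutamate receptor and synapse genes had 5 of 48 higher, above that share, and 1 lower. Of their differences 38 were positive and 10 negative, with a median of 0.13. On day 1, 0 of 48 passed, 27 were positive and 21 negative, and the median was 0.01. Grin2b, an NMDA receptor subunit, differed by 0.57 ± 0.24, Nlgn3, a postsynaptic adhesion protein, by 0.295 ± 0.13, and Slc17a8, a vesicular glutamate transporter, by -0.31 ± 0.14. Grin2b and Nlgn3 were -0.13 and -0.04 on day 1. GABA receptor and inhibitory neuron genes had 1 of 33 higher, the receptor subunit Gabra3 (0.53 ± 0.23), and 2 lower, the receptor subunit Gabrq (-0.51 ± 0.24) and the calcium buffer Calb1 (-0.28 ± 0.13). Of 78 potassium channel genes 5 were higher and 5 lower, among them Kcnb2 (0.44) and Kcne4 (-0.74). In the histamine, monoamine and acetylcholine list, 2 of 51 were higher and 4 lower. Hnmt, the enzyme that inactivates histamine in brain, differed by -0.34 ± 0.13, the serotonin receptor Htr7 by 0.41 ± 0.16, and the adrenergic receptor Adra1d by -0.38 ± 0.16.

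Stress genes gave small counts, where 4.74% of all genes were higher and 7.62% lower. Of 22 ER chaperone and unfolded protein response genes 3 were lower and 0 higher: Atf4, a transcription factor of the integrated stress response (-0.28 ± 0.11), Dnajb9, a co-chaperone (-0.25 ± 0.12), and Xbp1, a factor spliced upon ER stress (-0.35 ± 0.17). Atf4 was 0.03 on day 1. The main ER chaperone Hspa5 differed by 0.04 ± 0.11. In the heat shock and cold-inducible list, 1 of 23 was higher, the heat shock factor Hsf2 (0.57 ± 0.23), and 1 lower, the cold-inducible RNA-binding protein Cirbp (-0.27 ± 0.11). Hsf2 was -3.32 to -2.57 in Per3 5/5 mice 6, 7 and 8 and -4.84 to -4.12 in the other Per3 5/5 mice, and its day 1 difference was -0.0042.

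Families of genes with basic functions are read against 4.74% of all genes higher and 7.62% lower. Proteasome subunits had 7 of 44 lower and 0 higher (median -0.12), and mitochondrial ribosomal proteins 8 of 78 lower and 0 higher (-0.06). ATP synthase subunits had 4 of 17 lower (-0.04) and respiratory complex I 0 of 44. Cytosolic ribosomal proteins had 1 of 82 higher and 3 lower. Zinc finger genes named Zfp had 22 of 334 higher and 12 lower (0.05). The lower count of the mitochondrial ribosomal list and the higher count of the Zfp list were near the shares of all genes. Collagens were divided, with 6 of 38 higher and 11 lower, and serpins had 10 of 30 lower and 1 higher. Astrocyte markers had 0 of 25 higher and 1 lower, and myelin genes 0 of 29 higher and 1 lower. On day 1, where 0.389% of all genes were higher and 1.84% lower, 0 of 44 proteasome genes passed, and 1 of 78 mitochondrial ribosomal genes was higher and 0 lower.

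**Figure D4:**
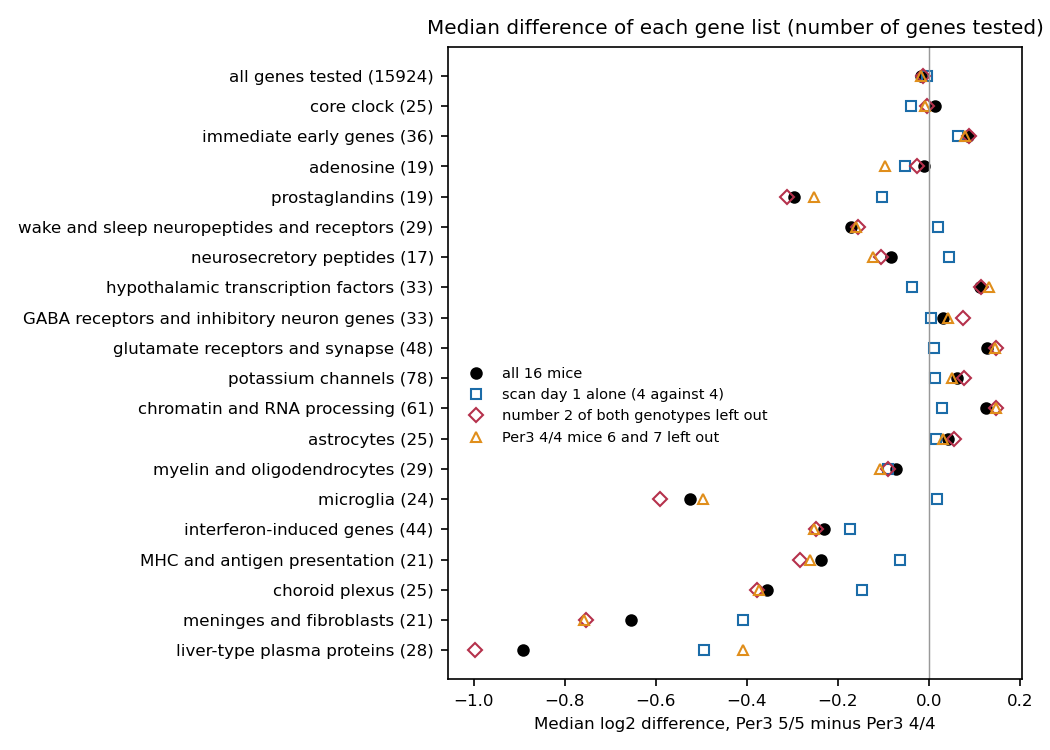
Median log2 difference in hypothalamus, Per3 5/5 minus Per3 4/4 (horizontal axis), of each gene list, with the number of genes tested, for all 16 mice, scan day 1 alone, and without named mice. Microglial genes have a median of -0.52 with all mice and 0.02 on day 1, while meningeal genes have -0.655 and -0.41.

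Across the plot of list medians, the lists of neuropeptides, receptors and potassium channels lay between -0.17 and 0.13 with all mice, and the 4 lowest of the lists plotted were those of microglia, choroid plexus, meninges and liver-type proteins. Without the mice labelled number 2 these 4 lists had medians of -0.59, -0.38, -0.75 and -0.998.

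Hypothalamus and cortex of the same mice were compared to see which differences belonged to one tissue. The differences of the 30735 probes had a Pearson correlation of 0.699 between tissues with all mice and 0.186 on scan day 1; this is a description across probes, and the 2 arrays of each mouse lay on 1 slide. With the cortex value of each mouse subtracted, 0 probes (0%) were called, with a smallest limma adjusted p of 0.659, and 349 (1.14%) were higher and 818 (2.66%) lower at an unadjusted p under 0.05. Wnt16, a secreted Wnt ligand, had the smallest p. Its hypothalamic level was -5.86, -5.47 and -5.14 in Per3 5/5 mice and -5.21, -4.70 and -4.29 in Per3 4/4 mice. In 7 of 8 Per3 5/5 mice it was below every Per3 4/4 mouse. The difference was -0.71 ± 0.15 in hypothalamus and 0.41 in cortex, and -1.12 ± 0.21 within mouse (limma adjusted p = 0.659).

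**Figure D5:**
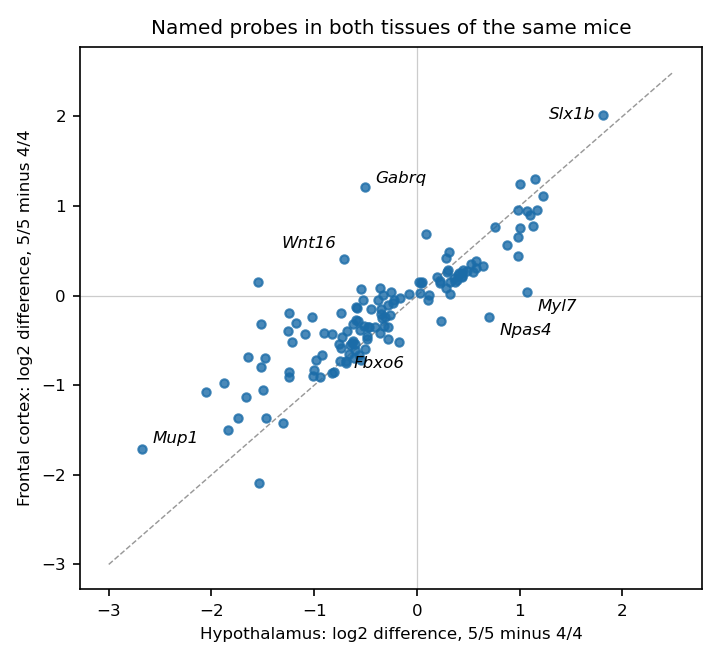
Log2 difference, Per3 5/5 minus Per3 4/4, in hypothalamus (horizontal axis) and in frontal cortex (vertical axis) for the named probes, with the line of equal differences dashed. Fbxo6 (-0.74 and -0.58) lies near that line, while Wnt16 (-0.71 and 0.41), Gabrq (-0.51 and 1.22) and Npas4 (0.70 and -0.23) have opposite signs in the tissues.

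The plot of both tissues places the chromosome 4 genes close to the line of equal differences, with Fbxo6 at -0.74 in hypothalamus and -0.58 in cortex. Gabrq differed by -1.72 within mouse, past the unadjusted level only. Myl7 was 1.07 in hypothalamus and 0.04 in cortex.

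Full separation of the genotypes was rare. All 8 Per3 5/5 mice lay above all 8 Per3 4/4 mice at 6 probes (0.0195%) and below them at 2 (0.00651%). There are 12870 arrangements of 8 mice against 8. A few of 30735 probes are therefore expected to separate fully without any difference between the genotypes. With a symbol, these were Fam107a, an actin-associated stress-response protein (0.30), and Pold3, a subunit of DNA polymerase delta (0.32), among the higher, and Slamf9, a receptor of the SLAM family (-0.61), and Tax1bp3, a PDZ protein (-0.24), as the lower. They are named after their values were seen.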

How the data were processed

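Hypothalamus of 8 Per3 5/5 and 8 Per3 4/4 mice was hybridised to 1-colour Agilent whole mouse genome arrays, after 12 h of SD. The authors deposited the scanner output of each array, whose processed signal is an intensity from Agilent Feature Extraction, already background-corrected. The deposited series table holds log2 values after the authors' 75th percentile shift in GeneSpring and was used as an alternative.

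Here the log2 intensity of each spot was taken relative to the 75th percentile of its array over non-control spots, outlier spots were set to missing, and spots of a probe were averaged. Probes had to exceed background clearly in 6 or more of the 8 mice of any genotype, which left 30735 probes. The 3 genotypes (24 hypothalamus arrays) were fitted together in limma 3.58.1 (R 4.3.3) with Benjamini-Hochberg adjustment over all probes and calls at an adjusted p under 0.05. Gene counts use the brightest probe per gene. Per3 and Homer1 were also tested by exact two-sided permutation over mice. Each array was labelled as a separate mouse, and p-values measure the spread between these mice. Summed levels of a list are linear, relative to the array 75th percentile. Scan days and slides were read from the scanner output. For gene order, the RefSeq table of GRCm38.p6 was used. Its build differs from that of the array annotation (mm9), so no probe coordinates are given.

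Named genes were Per3 and Homer1, the 12 largest differences in each direction at an unadjusted p under 0.05 that were above background in both genotypes and kept their sign with scan day as a block, up to 4 genes with the smallest p per list or, where none passed, up to 3 with the highest signal, up to 10 calls in each direction in other fits, and genes the study discussed for sleep. Genes beyond this rule are named as such or as background to a list. The lists and the genes were chosen with earlier results of these data known. On simulated data with known differences the fit recovered 29.9% of probes at a log2 size of 0.5, 74.6% at 1 and 97% at 2. On scan day 1 alone it recovered 0%, 29.9% and 83.3%. The simulated arrays were drawn independently, with no effect of scan day or slide and no mice that stood apart. These recovered shares therefore do not give the power of the real arrays. Alternatives covered background (normexp on the median spot signal and the median background), scaling, filters, scan day, slide, pairing, array weights, the methods' t-test with the same adjustment and leaving out mice. Leaving out the dim arrays or the mice labelled number 2, and slide as a block within scan day 1, were chosen after seeing the data. The study's rank product test was not run. A few named genes are not reported here.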

Additional observations from a re-analysis of the deposited data

Results flagged for a closer look

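Of 260 groups of 8 mice examined among the named probes, 19 had a highest or lowest mouse that lay far from the others by Dixon's criterion, and chance alone gives about 1 in 20. Of these, 8 were the mouse labelled Per3 5/5 number 2 and 4 the mouse labelled Per3 4/4 number 2. These probes belong largely to the genes that separated the lines on chromosomes 4, 2 and 11, and the cause was not tested. Several of them were named because they were called only without these 2 mice. At such probes the choice itself places these mice apart, so the set against 1 in 20 is no independent evidence.

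The mouse labelled Per3 5/5 number 2 was apart from the other Per3 5/5 mice at Ppp1r16b (-1.91), Ccl21a (-1.59), Pttg1 (2.72), Tgtp1 (-1.13), Mad2l2 (2.38), 2510039O18Rik (2.89), Kif3b (-0.826) and Rtel1 (-2.27). The mouse labelled Per3 4/4 number 2 was apart at Ppp1r16b (0.0982), Crhbp, which binds corticotropin-releasing hormone (0.399), and at both probes of Fbxo44 (0.755 and 1.17).

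Per3 5/5 mouse 3 was low for Slx1b (-4.3) and for Kcne2, a potassium channel subunit of the choroid plexus (-7.41). Per3 4/4 mouse 1 was high for C1qc (2.07) and for the folate receptor Folr2 (-3.78). Single mice were Per3 5/5 mouse 6 at the third Homer1 probe (-0.756), Per3 4/4 mouse 6 at Pla2g4a (-2.3) and Per3 4/4 mouse 8 at Lrg1 (-0.873).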

How the results depend on the processing

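Over 37 alternatives, the 135 named probes gave 4995 values, of which 4873 lay within 1 SD of the value reported, 91 moved further and 31 reversed. No probe was called with all mice, where 4983 passed at an unadjusted p under 0.05. That number was 2767 with normexp, 1659 with array weights, 3230 with slide as a random and 638 with slide as a fixed block, 2402 with scan day as a block over the 16 arrays (1 call), 807 on scan day 1 alone, 1751 there with slide as a block, and 2869 without Per3 4/4 mice 6 and 7 with scan day as a block. Scan days 2 and 3 alone gave 4542 calls and 10080 probes, with day and genotype largely overlapping. Leaving out the mice labelled number 2 gave 43 calls, or 25 with scan day as a block. Leaving out 1 mouse at a time gave 0 to 26 calls, the most without Per3 5/5 number 2, and 2642 to 6758 probes at the unadjusted level, the fewest without Per3 5/5 mouse 7.

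Per3 differed by 0.28 with median centring (exact permutation p = 0.0491) and by -0.0878 on scan day 1. The Homer1 probe A_51_P387159 differed by 0.053 with normexp and 0.11 on day 1, A_51_P387160 by 0.10 and 0.094, and A_52_P151211 by -6.296e-06 on day 1. The replicate numbers were not taken as pairs: 4 of 8 same-numbered pairs had correlated deviations over 0.1 (r from -0.0405 to 0.518) and 3 of 8 mice correlated best with their own number. Numbers 1 to 4 shared a slide and a scan day across genotypes, and there r was -0.00274 to 0.518. With the replicate block, 0 probes were called and 5264 passed at the unadjusted level. The Homer1 differences of 0.49 and 0.36 then had exact permutation p of 0.0234 and 0.0703. After Benjamini-Hochberg adjustment over the Homer1 probes these permutation p were 0.0703 and 0.105, against 0.0112 and 0.0289 without the block.

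Sim2 was -0.0496 with normexp. On day 1, with slide as a fixed block, and with both, the reversed values were -0.0878 for Per3, -7.11e-05 for Csnk1e, -0.0069 for Dusp4, 0.0261 for Atf4, -0.0042 for Hsf2, 0.0502 for Hnmt, -0.129 for Grin2b, -0.0423 for Nlgn3, -0.0178 for Gabra3 and 0.0208 for Itgam. The causes were not tested. Within mouse against cortex, every alternative run gave 0 calls. Dim probes limit the plasma protein, choroid plexus and immune lists.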
